A study of Mus musculus with 13 samples.

Results

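The comparison described here is that of fat from lean mice lacking P2X7 with fat from lean wild-type mice, both kept on chow. It used 6 of the 13 arrays of the study, the 3 of knockout mice and the 3 of wild-type mice on the low-fat diet, chosen by their labels, and covered 18820 genes, each read by 1 probe set that names a single gene. All mice were males aged 18 weeks that ate chow with 13% of energy from fat for the last 12 weeks, and the tissue was epididymal white fat, a visceral depot. Wild-type mice were C57Bl/6, and knockout mice were B6.129P2-P2rx7tm1Gab/J, which carry a targeted P2rx7 allele and had been crossed back to B6 over 7 generations. The sources used here do not say whether the wild-type mice were littermates of the knockout mice. The fit also held 3 wild-type and 4 knockout arrays from mice fed 60% of energy as fat for the same 12 weeks, so that all 4 groups shared the estimate of spread.

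P2X7 is a cation channel that opens when ATP is present outside the cell at high concentration. In macrophages its opening lets potassium leave the cell, a well-known trigger of the NLRP3 inflammasome, in which the adaptor ASC (gene Pycard) joins the sensor to caspase-1, the protease that matures interleukin-1 beta and interleukin-18. Fat tissue holds resident macrophages beside adipocytes, vessels and fibroblasts, and the title of the study places its question in obese fat, so the chow groups are its lean baseline.

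The chow arrays were alike in overall level, with medians over the genes of 6.56 to 6.67 on the log2 scale. Across genes they correlated at 0.995 to 0.997 within a genotype and at 0.993 to 0.996 between genotypes. The adipocyte markers checked the tissue label: the mean log2 level of 15 measured adipocyte genes lay between 12.1 and 12.3 on every chow array. Marker means for pancreas (4.38 to 4.50), epididymis (3.84 to 4.16) and testis (3.95 to 4.06) were low throughout. Single arrays stood apart in other lists. Wild-type replicate 1 was the highest in liver transcripts, knockout replicate 1 was the highest in interferon-stimulated genes, and leaving out wild-type replicate 2 on high-fat diet changed the number of genes that passed, also on chow. The liver and interferon lists and the counts of passing genes are also given without the array concerned. Single genes are given from all arrays unless stated.

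Loss of P2X7 went with few differences in lean fat. Of the 18820 genes, 25 passed at a limma adjusted p under 0.05 (0.133%), 9 of them higher in knockout mice (0.0478%) and 16 lower (0.0850%). The fall in knockout fat was led by Mup20, a major urinary protein, by Lrmda, a leucine-rich repeat protein known from melanocyte differentiation, by the liver fatty acid binding protein Fabp1 and by the iron hormone hepcidin (Hamp). The rise was led by the glycogen-binding protein Stbd1, the transcriptional repressor Bcl6, the GABA receptor subunit Gabrq and the peptide hormone apelin (Apln). The 25 folds ran from 1.33 to 6.83, with 7 of at least 2-fold and 21 of at least 1.5-fold (0.112% of all genes), and 10 of the 25 had a mean level below the array medians. In each of the 25 the 3 knockout arrays did not overlap the 3 wild-type arrays, a pattern that 14.9% of all genes showed.

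**Figure D1:**
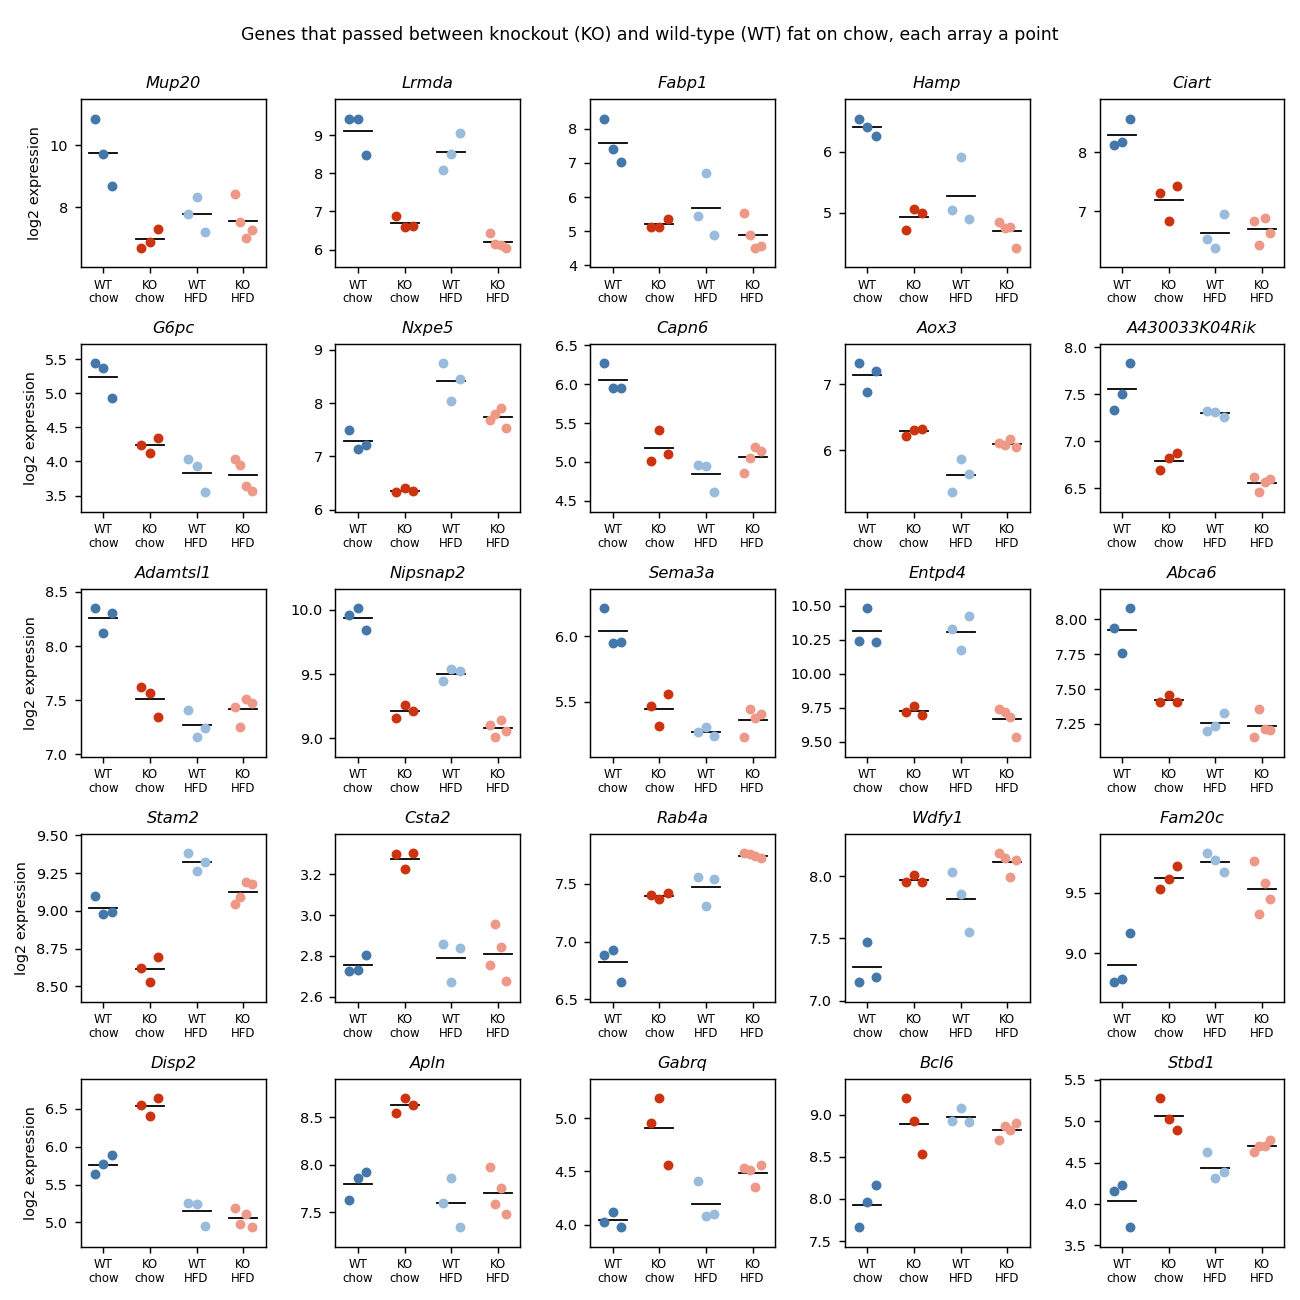
Log2 expression of each of the 25 genes that passed on chow, with 1 panel per gene, 1 point per array and a line at each group mean, for wild-type (WT) and knockout (KO) mice on chow and on high-fat diet (HFD). The 3 red knockout points on chow lie clear of the 3 blue wild-type points in all 25 panels, while on high-fat diet the genotypes are apart without overlap in 10 of them. In Bcl6 and Aox3, which are among these 10, the direction is opposite to that on chow.

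For the rest of the genes the arrays set narrow bounds. The median difference over all genes was 0.02, and the median 95% interval reached 0.21 to either side, which is 1.15-fold. For 17207 genes (91.4%) the whole interval lay within 1.5-fold in both directions. No filter on level was used, so this count can include genes near the bottom of the scale. Whether such genes were detected was not tested. Small differences leaned upward: 58.3% of all genes were higher in knockout mice, and at an unadjusted p under 0.05 there were 1810 genes (9.62%), 1134 higher (6.03%) and 676 lower (3.59%). The lean depended on array scaling. With arrays centred on their medians the median difference over all genes was -0.02, and after a second quantile normalization it was 0.003. Shares and list medians given below are from the values as deposited. Nothing in the labels says that the arrays came from separate animals, and the p-values cover only the spread among these samples, which may be technical.

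For P2rx7 itself, the sources used here do not say whether its probe set lies inside or outside the targeted stretch, and its level is therefore no check of the genotype. Its log2 values were 8.32, 7.91 and 8.41 in wild-type fat against 8.23, 7.90 and 8.04 in knockout fat. The groups overlapped, and the difference of P2rx7 was -0.16 ± 0.13 (SE; adjusted p 0.741; 95% interval -0.44 to 0.13). P2rx4, which encodes the related ATP-gated channel and lies beside P2rx7 in the gene order, read 9.84, 9.60 and 9.83 in wild-type fat against 9.87, 9.80 and 9.76 in knockout fat, a difference of 0.05 ± 0.09 (adjusted p 0.901). On high-fat diet P2rx7 had -0.47 ± 0.12 (limma adjusted p 0.464) and P2rx4 -0.52 ± 0.09 (limma adjusted p 0.0688). Every knockout array was below every wild-type array there for both genes, and neither passed.

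Inflammasome genes did not pass. Nlrp3, the sensor, read 4.92, 4.96 and 4.62 in wild-type fat against 4.90, 4.79 and 5.14 in knockout fat, a difference of 0.11 ± 0.13 (adjusted p 0.847; interval -0.18 to 0.40). Pycard, the adaptor, read 6.61, 6.52 and 6.87 against 6.92, 6.68 and 6.90, a difference of 0.17 ± 0.15 (adjusted p 0.766; interval -0.16 to 0.50). Casp1, which encodes caspase-1, read 6.92, 7.09 and 7.14 against 7.23, 7.21 and 7.16. All 3 knockout values of Casp1 were above the wild-type ones, yet the difference was 0.15 ± 0.14 (adjusted p 0.779; interval -0.15 to 0.44). Among the cytokine substrates, Il1b read 5.39, 5.71 and 4.97 against 5.52, 5.43 and 5.40, a difference of 0.10 ± 0.17 (adjusted p 0.902; interval -0.27 to 0.46). Il18 read 6.24, 6.28 and 6.61 against 6.27, 6.15 and 6.14, a difference of -0.19 ± 0.11 (adjusted p 0.622; interval -0.42 to 0.05). Nlrp3 and Il1b lay below the array medians on every chow array. In the list of inflammasome sensors, adaptor and caspases 0 of 19 measured genes passed, 0 reached an unadjusted p under 0.05, and the median was 0.08 against 0.02 for all genes.

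The wider ATP and interleukin-1 pathway held no passing gene either. Of 14 measured P2X and P2Y receptors and adenosine receptors 0 passed, with a median of 0.03. P2rx5, another ATP-gated channel, stood furthest from 0: it read 6.05, 6.51 and 6.11 in wild-type fat against 6.61, 6.65 and 6.97 in knockout fat, a difference of 0.52 ± 0.19 (adjusted p 0.392) with no overlap. Of 16 genes of ATP release and breakdown outside the cell 0 passed, and their median was 0.01. Entpd1 (CD39), which removes extracellular ATP, had 0.15 ± 0.10 and Nt5e (CD73), which makes adenosine, -0.37 ± 0.27. Of 17 genes of the interleukin-1 family and its receptors 0 passed, with 2 higher and 2 lower at an unadjusted p under 0.05. The alarmin Il33 read 8.19, 7.88 and 8.30 against 7.88, 7.38 and 7.42, a difference of -0.56 ± 0.17 (adjusted p 0.28). The shared receptor subunit Il1rap had -0.31 ± 0.09 (adjusted p 0.28), and the receptor antagonist Il1rn 0.51 ± 0.26 (adjusted p 0.561).

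A small set of genes was lower in knockout mice on both diets. Lrmda, Nipsnap2, Entpd4 and A430033K04Rik passed on chow and again on high-fat diet, always lower, out of 8 genes that passed on high-fat diet (0.0425%), 6 of them lower (0.0319%). The high-fat arrays are other samples of the same 2 genotypes. Without wild-type replicate 2 on high-fat diet, 177 genes passed there, 6 of the 25 among them. Nxpe5 was then added in the same direction as on chow (-0.87 ± 0.12, limma adjusted p 0.00774). Aox3 was added in the direction opposite to chow (0.60 ± 0.12, adjusted p 0.0367). Lrmda read 9.44, 9.43 and 8.48 in wild-type fat against 6.87, 6.60 and 6.61 in knockout fat on chow. The gap was wider than the whole spread of the wild-type arrays, and Lrmda fell by 2.42 ± 0.25 (5.35-fold; adjusted p 0.00298). On high-fat diet the Lrmda values were 8.08, 8.51 and 9.05 in wild-type fat and 6.05 to 6.43 over the 4 knockout arrays, and Lrmda fell by 2.36 ± 0.24 (adjusted p 0.00369). The interaction of genotype and diet for Lrmda was 0.06 (adjusted p 0.971).

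Nipsnap2, a mitochondrial protein of the NIPSNAP family, had the smallest p on chow. It read 9.96, 10.01 and 9.84 in wild-type fat against 9.16, 9.26 and 9.22 in knockout fat, and Nipsnap2 fell by 0.72 ± 0.06 (1.65-fold; adjusted p 0.000472). Each group spanned under 0.2 on the log2 scale, far less than the gap. On high-fat diet Nipsnap2 fell by 0.42 ± 0.06 (adjusted p 0.0163). Entpd4, a nucleotide-hydrolysing enzyme of the Golgi and lysosomal lumen, read 10.24, 10.48 and 10.23 against 9.72, 9.76 and 9.69, and fell by 0.59 ± 0.08 on chow (adjusted p 0.0222) and by 0.64 ± 0.08 on high-fat diet (adjusted p 0.00772). A430033K04Rik, known by a clone name, read 7.33, 7.51 and 7.83 against 6.69, 6.82 and 6.88, and fell by 0.76 ± 0.11 on chow (adjusted p 0.0222) and by 0.73 ± 0.10 on high-fat diet (adjusted p 0.0175). For these 3 genes too, no knockout array overlapped a wild-type array on either diet.

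These genes were placed by their order in the RefSeq table of GRCm38.p6, counting measured genes. P2rx7 lies on chromosome 5, which holds 1079 of the placed genes (5.74%) and 6 of the 25 that passed. Nipsnap2 is 70 places from P2rx7, Nxpe5 193, A430033K04Rik 201 and Fam20c 202 places on the same side, and on the other side Stbd1 is at place -273 and Sema3a at place -702 relative to P2rx7. Lrmda and Entpd4 are both on chromosome 14, 428 places apart. Of the 200 genes within 100 places of P2rx7, Nipsnap2 was the only gene that passed. At an unadjusted p under 0.05 there were 30 of the 200 (15%), beside 9.62% of all genes, and within 50 places 19 of 100 (19%), of which 0 passed. Among the neighbours of P2rx7 that did not pass, the centrosomal gene Mphosph9, 31 places away, had the smallest p, with 0.39 ± 0.08 (adjusted p 0.129) and 0.05 ± 0.08 on high-fat diet. The nearest neighbours of the 4 genes that passed on both diets were also read on chow. Among the 10 genes flanking Lrmda the differences ran from -0.34 to 0.15, among those flanking Entpd4 from -0.10 to 0.17 and among those flanking Nipsnap2 from -0.21 to 0.20, with 0 passing. Among those flanking A430033K04Rik they ran from -0.09 to 0.72, where Fam20c in the next place passed, and in the opposite direction. Strain origin around P2rx7 or any of these genes was not measured.

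**Figure D2:**
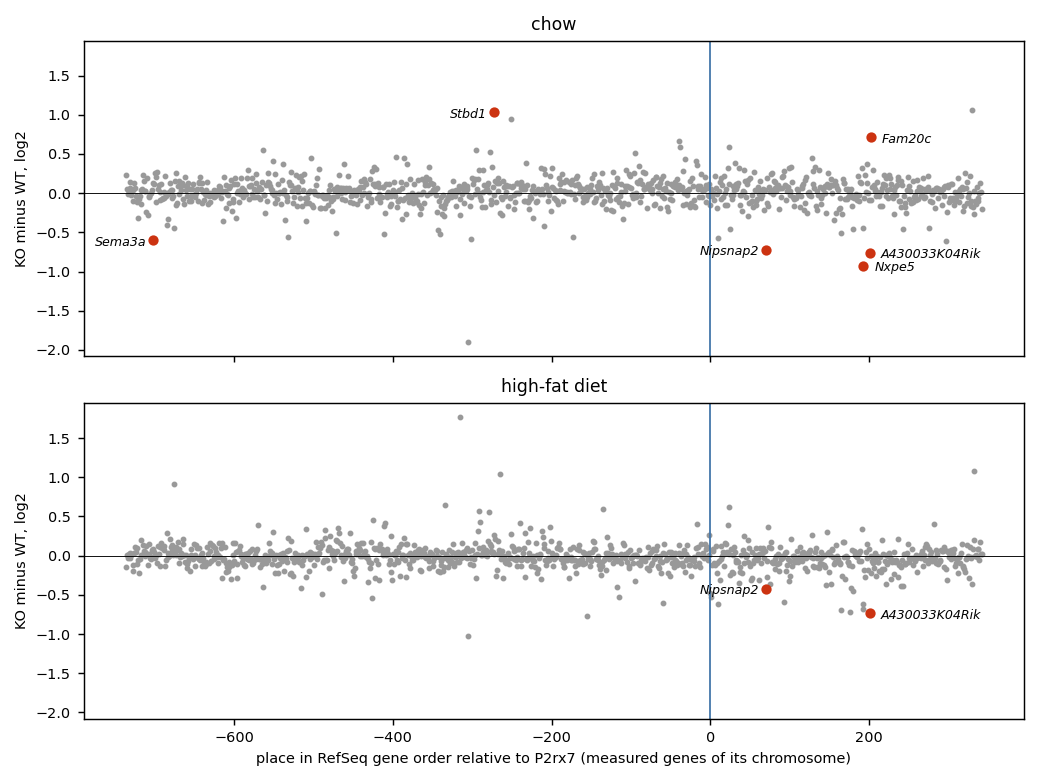
Difference between knockout and wild-type mice (log2) for each measured gene of chromosome 5, in RefSeq gene order relative to P2rx7 (blue line at 0), on chow above and on high-fat diet below. Red points are genes that passed: Stbd1, Sema3a, Nipsnap2, Nxpe5, A430033K04Rik and Fam20c on chow, and Nipsnap2 and A430033K04Rik on high-fat diet.

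The genes that rose in knockout fat on chow have several functions. Stbd1, which tethers glycogen to membranes, read 4.16, 4.23 and 3.72 in wild-type fat against 5.28, 5.03 and 4.89 in knockout fat, and rose by 1.03 ± 0.14 (2.04-fold; adjusted p 0.022). Bcl6, a zinc-finger repressor known in lymphocytes and in adipocyte and hepatic lipid metabolism, read 7.66, 7.97 and 8.16 against 9.19, 8.93 and 8.53, and rose by 0.95 ± 0.15 (adjusted p 0.0364). Apln, the apelin peptide that acts on vessels and is secreted by adipocytes, read 7.63, 7.86 and 7.92 against 8.54, 8.70 and 8.64, and rose by 0.83 ± 0.14 (adjusted p 0.0451). The lowest knockout array was above the highest wild-type array in each, by the narrowest margin for Bcl6. Apln was the only passing gene of 12 measured adipokines. Leptin (Lep) had 0.20 ± 0.11 and adiponectin (Adipoq) 0.08 ± 0.10, and Sfrp5, a secreted Wnt inhibitor of adipocytes, 1.03 ± 0.35 with overlapping groups (adjusted p 0.366).

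Rab4a, a small GTPase of recycling endosomes, read 6.89, 6.93 and 6.65 against 7.40, 7.37 and 7.42, and rose by 0.58 ± 0.09 (adjusted p 0.0284). Wdfy1, an adaptor on early endosomes, rose by 0.70 ± 0.12 (adjusted p 0.0428), from 7.15, 7.47 and 7.19 to 7.95, 8.01 and 7.95. Fam20c, the Golgi kinase of secreted proteins, rose by 0.72 ± 0.12 (adjusted p 0.0429), from 8.76, 8.79 and 9.17 to 9.53, 9.61 and 9.72. The knockout arrays of these genes lay close together. Disp2, a member of the Dispatched family of membrane proteins, rose by 0.77 ± 0.11 (adjusted p 0.0222), from 5.64, 5.77 and 5.89 to 6.55, 6.40 and 6.64. Csta2, a cysteine protease inhibitor of the stefin family, rose by 0.52 ± 0.07 (adjusted p 0.022), from 2.73, 2.73 and 2.80 to 3.30, 3.23 and 3.30. Csta2 sat near the bottom of the scale of the arrays, and its relatives Csta1 (-0.03 ± 0.08) and Csta3 (-0.09 ± 0.10) stayed near 0.

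On the X chromosome, Gabrq, the theta subunit of the GABA-A receptor, read 4.02, 4.12 and 3.98 against 4.96, 5.19 and 4.56, and rose by 0.86 ± 0.14 (adjusted p 0.0364). Its neighbour in gene order, Gabra3, the alpha 3 subunit of the same receptor, had the largest difference of all non-overlapping genes that did not pass. Gabra3 read 5.85, 4.95 and 4.92 in wild-type fat against 8.66, 8.24 and 8.27 in knockout fat, a difference of 3.15 ± 0.73 (8.88-fold; adjusted p 0.18). The SE of Gabra3 came with a wide spread on high-fat diet, where wild-type mice read 9.35, 5.33 and 8.89 and knockout mice 8.80 to 9.20. Gabre, the epsilon subunit 5 places from Gabrq, had 0.46 ± 0.27 (adjusted p 0.62).

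The genes that fell and are not liver transcripts belong to several functions. Adamtsl1, a matrix glycoprotein, read 8.35, 8.12 and 8.30 in wild-type fat against 7.62, 7.56 and 7.34 in knockout fat, and fell by 0.75 ± 0.10 (adjusted p 0.022), while its other probe set gave -0.67 ± 0.14. Capn6, a calpain without protease activity, read 6.27, 5.96 and 5.94 against 5.01, 5.41 and 5.11, and fell by 0.88 ± 0.14 (adjusted p 0.0364). Sema3a, a secreted guidance cue for axons and vessels, fell by 0.60 ± 0.10 (adjusted p 0.0407), from 6.21, 5.95 and 5.96 to 5.47, 5.31 and 5.55. Each of these had a gap between the groups larger than the spread of either. Nxpe5, a member of the neurexophilin and PC-esterase family, fell by 0.92 ± 0.15 (adjusted p 0.0429), from 7.49, 7.15 and 7.21 to 6.32, 6.40 and 6.35. Its relatives Nxpe2 (-0.25 ± 0.17), Nxpe3 (0.07 ± 0.16) and Nxpe4 (-0.23 ± 0.19) did not pass. Abca6, an ABC transporter of the A subfamily, fell by 0.50 ± 0.09 (adjusted p 0.0451), from 7.94, 7.76 and 8.08 to 7.41, 7.46 and 7.41, while Abca9 (0.05 ± 0.13) and Abca8b (0.00 ± 0.10) stayed near 0 and Abca8a had -0.38 ± 0.13 (adjusted p 0.371). Stam2, which sorts ubiquitinated receptors on endosomes, had the smallest fall, by 0.41 ± 0.07 (adjusted p 0.0407), from 9.10, 8.98 and 8.99 to 8.62, 8.53 and 8.70.

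Transcripts known from liver were lower in knockout fat. Mup20 read 10.85, 9.70 and 8.68 in wild-type fat against 6.71, 6.89 and 7.32 in knockout fat, and fell by 2.77 ± 0.47 (6.83-fold; adjusted p 0.046). Fabp1 read 8.30, 7.41 and 7.03 against 5.12, 5.13 and 5.35, and fell by 2.38 ± 0.41 (adjusted p 0.0485). Hamp read 6.54, 6.41 and 6.25 against 4.71, 5.05 and 4.99, and fell by 1.48 ± 0.21 (adjusted p 0.0222). In Mup20 and Fabp1 the wild-type arrays were spread over more than 1 on the log2 scale with replicate 1 the highest, while the knockout arrays lay close together. G6pc, the glucose-6-phosphatase that releases glucose from liver, read 5.44, 5.37 and 4.93 against 4.24, 4.12 and 4.34, and fell by 1.01 ± 0.17 (adjusted p 0.0409). Aox3, an aldehyde oxidase abundant in mouse liver, read 7.32, 6.89 and 7.20 against 6.22, 6.32 and 6.33, and fell by 0.85 ± 0.13 (adjusted p 0.0284). Their close relatives varied: Mup3 had -2.28 ± 0.58 (adjusted p 0.227) and Mup6 -1.15 ± 0.28 (adjusted p 0.207), whereas Hamp2 had 0.01 ± 0.10, Aox1 -0.13 ± 0.14 and the adipocyte protein Fabp4 -0.08 ± 0.06. The Mup genes are near-identical copies, so their signals may be shared between probe sets.

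The liver marker list moved with these genes. All 17 measured liver markers were below 0 (41.7% of all genes were), 16 of 17 did not overlap (5.64% of all genes in that direction) and 15 had an unadjusted p under 0.05, but 0 passed. Their median was -1.52. Albumin (Alb) read 11.51, 10.93 and 10.80 in wild-type fat against 9.04, 9.27 and 9.26 in knockout fat, a difference of -1.90 ± 0.63 (adjusted p 0.347). The fibrinogen chain Fgb came nearest to passing, with 8.54, 7.78 and 7.37 against 5.66, 5.78 and 5.77, a difference of -2.16 ± 0.38 (adjusted p 0.0572). The mean over the list was 7.62, 7.02 and 6.77 in wild-type fat against 5.69, 5.79 and 5.76 in knockout fat. On high-fat diet the same mean was 5.97, 6.96 and 5.57 in wild-type mice and 5.41 to 6.28 in knockout mice, so that the genotypes overlapped, and 15 of the 17 were below 0 there (54.5% of all genes were). Trf (transferrin), which fat makes as well, was the exception, with 12.43, 12.72 and 12.70 against 12.51, 12.65 and 12.57.

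With the liver list mean as a covariate, the differences were -0.57 for Fabp1, -0.95 for Mup20, -0.71 for Hamp, -0.52 for G6pc and -0.61 for Aox3, and none of these passed. That fit called 10 genes, of which only Nipsnap2 (-0.68, adjusted p 0.0399) was among the 25, and in it the list mean, like the genotype, separates the chow arrays without overlap. Genes of the 25 that are not known as liver transcripts also did not pass there. Lrmda had -2.21 ± 0.41 (adjusted p 0.149), Ciart -1.51 ± 0.27 (adjusted p 0.136), Apln 1.13 ± 0.20 and Nxpe5 -1.13 ± 0.24. Entpd4 had -0.69 ± 0.13, A430033K04Rik -0.88 ± 0.17 and Stbd1 1.01 ± 0.22. Without wild-type replicate 1 the median of the liver list was -1.30, with 17 of 17 below 0. Whether liver transcripts entered with liver tissue or were made in fat was not tested. In whole tissue, fewer cells of a type and less RNA per cell cannot be told apart.

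**Figure D3:**
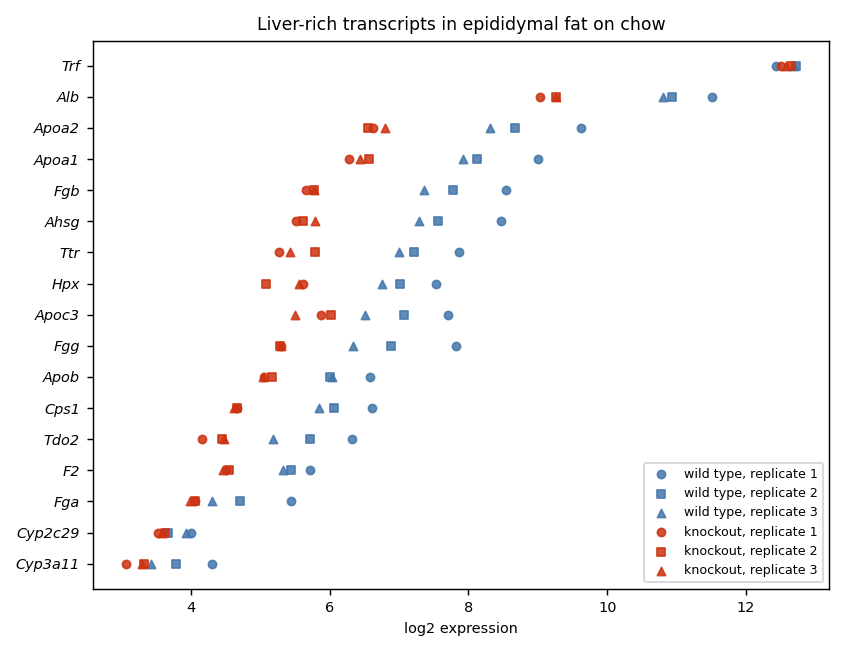
Log2 expression of 17 liver-rich transcripts in epididymal fat on chow, with wild-type arrays in blue and knockout arrays in red and a symbol for each replicate. Wild-type replicate 1 (circles) is the highest array for 16 of the 17, and the knockout arrays lie together at the low end, except for Trf.

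Of the genes of the circadian clock, Ciart passed and several more lay apart without passing. The clock is a feedback loop in which the activators Arntl (BMAL1), Clock and Npas2 bind E-boxes (CACGTG) at the genes of their own repressors, the Per, Cry, Bhlhe and Ciart proteins, while the factors Dbp, Tef and Hlf bind D-boxes (TTATGTAA). Ciart, a repressor of the BMAL1 and CLOCK pair, read 8.12, 8.17 and 8.57 in wild-type fat against 7.31, 6.84 and 7.44 in knockout fat, and fell by 1.09 ± 0.19 (2.13-fold; adjusted p 0.0476). Its other probe set gave -0.71 ± 0.21. Of 18 measured clock genes 10 had an unadjusted p under 0.05 (9.62% of all genes did), 3 higher and 7 lower. In all 10 the arrays did not overlap (14.9% of all genes), which is a description, since the 10 were picked by their p.

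Of the loop's activators, Arntl read 5.93, 5.90 and 5.48 against 6.27, 6.39 and 6.37, a difference of 0.57 ± 0.16 (adjusted p 0.272). Npas2 had 0.40 ± 0.18 and Clock 0.17 ± 0.07. All 3 were above 0, with every knockout array above every wild-type array (9.30% of all genes). Of the repressors, Bhlhe40 (DEC1) read 8.79, 9.26 and 9.17 against 8.15, 8.42 and 8.68, a difference of -0.65 ± 0.19 (adjusted p 0.275). Bhlhe41 (DEC2) read 8.26, 8.62 and 8.69 against 7.86, 8.07 and 8.06, a difference of -0.53 ± 0.17 (adjusted p 0.312). Per3 read 9.29, 9.27 and 9.50 against 8.85, 8.77 and 8.97, a difference of -0.49 ± 0.14 (adjusted p 0.28). These repressors were below 0, as were the D-box factors Hlf (-0.42 ± 0.16) and Tef (-0.27 ± 0.12) and the kinase Csnk1e (-0.15 ± 0.07). The other clock genes were near 0 or overlapped: Per1 had -0.23 ± 0.18, Per2 0.04 ± 0.18, Cry1 -0.17 ± 0.11, Cry2 -0.04 ± 0.11 and Nr1d2 -0.10 ± 0.07.

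On high-fat diet Ciart had 0.07 ± 0.18, Arntl -0.29 ± 0.15, Npas2 -0.54 ± 0.17, Bhlhe40 -0.02 ± 0.18 and Per3 0.31 ± 0.13, and the clock list had a median of 0.07 (-0.13 on chow). The interaction of genotype and diet for Ciart did not pass (1.16, adjusted p 0.298). Ciart did not pass in any of the 6 fits that left out 1 chow array, and the number of clock genes at an unadjusted p under 0.05 was 5 to 9 in them, with list medians of -0.18 to -0.08. With the liver list as covariate Ciart (-1.51 ± 0.27, adjusted p 0.136) and Per3 (-0.75 ± 0.22, adjusted p 0.311) did not pass. In that fit Bhlhe40 (-1.31 ± 0.20, adjusted p 0.0433) and Bhlhe41 (-1.13 ± 0.16, adjusted p 0.0399) passed, and Npas2 stood at -0.09 ± 0.24. The sources used here do not give the hour at which the tissue was taken.

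**Figure D4:**
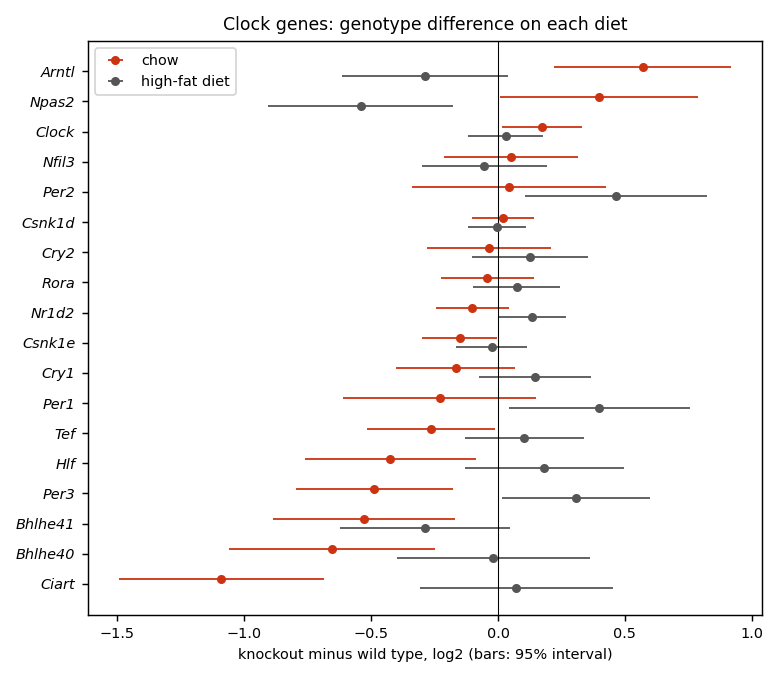
Difference between knockout and wild-type mice (log2) with its 95% interval for 18 clock genes, on chow in red and on high-fat diet in grey. On chow the activators Arntl, Npas2 and Clock lie above 0 and Ciart, Bhlhe40, Bhlhe41, Per3, Hlf, Tef and Csnk1e below, and only Ciart passed.

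Promoters of Ciart, Bhlhe41 and Per3, clock repressors with lower values in knockout mice, are printed to show the E-boxes and D-boxes they hold. They were chosen after the values were seen. The rule set for printing promoters, 3 or more passing genes in a list, was not met, since only Ciart passed. The shares of all promoters given below are therefore descriptions. Each is the 250 bases before the gene start on the gene's strand, from RefSeq on GRCm38.p6, with capitals marking an E-box in Ciart and Bhlhe41 and a D-box in Per3. Ciart lies at chr3:95882229-95882478, Bhlhe41 at chr6:145865421-145865670 and Per3 at chr4:151044666-151044915, all on the minus strand.
Ciart: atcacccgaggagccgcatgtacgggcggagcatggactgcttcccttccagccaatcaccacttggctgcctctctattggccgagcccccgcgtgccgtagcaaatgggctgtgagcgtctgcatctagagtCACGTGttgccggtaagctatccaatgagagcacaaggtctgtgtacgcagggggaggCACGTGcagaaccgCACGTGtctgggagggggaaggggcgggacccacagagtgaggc
Bhlhe41: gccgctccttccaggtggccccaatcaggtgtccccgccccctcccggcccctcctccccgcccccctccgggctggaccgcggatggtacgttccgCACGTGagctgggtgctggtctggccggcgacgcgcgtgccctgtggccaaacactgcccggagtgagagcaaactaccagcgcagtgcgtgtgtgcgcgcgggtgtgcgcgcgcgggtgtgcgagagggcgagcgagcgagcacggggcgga
Per3: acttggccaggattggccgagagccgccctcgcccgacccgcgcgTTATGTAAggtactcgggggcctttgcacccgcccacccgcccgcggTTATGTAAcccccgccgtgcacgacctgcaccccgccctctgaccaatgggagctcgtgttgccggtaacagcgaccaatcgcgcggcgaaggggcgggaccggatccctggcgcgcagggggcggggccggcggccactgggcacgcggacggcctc

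Ciart held 3 E-boxes, starting at -116, -58 and -44 from its gene start, and 20 of 32851 promoters of this length (0.0609%) held as many or more. Bhlhe41 held 1 at -153, and 6.02% of all promoters held at least 1. Per3 held 2 D-boxes, at -205 and -158, and 6 of all promoters (0.0183%) held 2 or more. Both strands were searched, CACGTG reads the same on each, and the motifs do not overlap each other. Of the 18 clock genes 15 had a promoter in the table, of which 5 held an E-box and 1 a D-box. Besides Ciart and Bhlhe41, the genes with an E-box were Tef, Cry1 and Per1, of which Cry1 and Per1 were near 0 or overlapped on chow. Arntl, Clock, Npas2, Hlf, Csnk1e, Cry2, Nr1d2, Rora and Nfil3 held neither motif in this window. Bhlhe40 had no promoter among those searched. A match describes the letters and is not evidence of binding.

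In the immune lists 0 genes passed, and their medians differed between lists. Of 28 chemokines, cytokines and NF-kappa B targets 20 were above 0 and 7 had an unadjusted p under 0.05, all higher (6.03% of all genes), with a median of 0.14. Ccl2, the chemokine that draws monocytes, read 8.14, 8.01 and 7.89 in wild-type fat against 8.52, 9.18 and 8.86 in knockout fat, a difference of 0.84 ± 0.21 (adjusted p 0.227). Ccl7 read 7.95, 7.81 and 7.55 against 8.45, 8.57 and 8.34, a difference of 0.69 ± 0.17 (adjusted p 0.209). Both were higher on each knockout array, and on high-fat diet they had -0.40 ± 0.20 and -0.27 ± 0.16. Of 19 macrophage markers 16 were above 0, with a median of 0.11 and Adgre1 (F4/80) at 0.30 ± 0.13. Of 17 genes of lipid-associated macrophages 15 were above 0, with a median of 0.21. That list also holds the adipocyte marker Fabp4 and the lipid-droplet gene Plin2, so in whole fat it does not read macrophages alone. The elastase Mmp12 read 8.69, 6.38 and 7.65 against 9.64, 8.05 and 10.30, a difference of 1.76 ± 0.54 (adjusted p 0.295), with wild-type replicate 2 far below the rest. Without that replicate 10 of the 19 macrophage markers were above 0 and their median was 0.04, and without knockout replicate 1 it was 13 of 19 and 0.06. Of the genes of lipid-associated macrophages 11 of 17 were above 0 without wild-type replicate 1, and their median was 0.11 without knockout replicate 3. Several other immune lists had medians near 0: B cells -0.02, neutrophils -0.02, eosinophils -0.07, mast cells 0.02, natural killer cells 0.02 and MHC class II presentation 0.02. Dendritic cells had a median of 0.08 with 6 of 9 above 0, and T cells 0.20 with 7 of 8 above 0. Of all genes 58.3% were above 0.

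Interferon-stimulated genes were above 0 in 22 of 23 cases, with a median of 0.36 and 6 at an unadjusted p under 0.05, all higher, beside 58.3% above 0 and 6.03% higher at that p over all genes, and they rested on 1 array. The mean over the list was 8.45 in knockout replicate 1, against 7.82 and 7.68 in the other knockout arrays and 7.63 to 7.67 in wild-type mice. Oas2, an antiviral RNA sensor, read 8.55, 7.72 and 7.50 in knockout mice and 7.03, 7.58 and 7.14 in wild-type mice. Without knockout replicate 1 the list had 16 of 23 above 0, a median of 0.09 and 1 gene at an unadjusted p under 0.05.

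In the lists of cell stress and early response 0 genes passed. In the unfolded protein response 14 of 16 genes were above 0 (58.3% of all genes) and 6 were higher at an unadjusted p under 0.05 (6.03% of all genes), with a median of 0.11. The chaperone Dnajb9 read 9.44, 9.55 and 9.44 against 9.94, 9.81 and 9.70, a difference of 0.34 ± 0.08 (adjusted p 0.168). Atf3, a stress-induced transcription factor, read 8.37, 7.68 and 8.24 against 8.85, 8.70 and 8.75, a difference of 0.67 ± 0.16 (adjusted p 0.2). Neither gene overlapped between the groups, and on high-fat diet Atf3 had -0.29 ± 0.15. The heat-shock chaperone Hsph1 missed the threshold most narrowly of all genes, with 6.69, 7.32 and 6.98 against 8.29, 8.21 and 7.66, a difference of 1.06 ± 0.19 (adjusted p 0.0524). Of 20 immediate early genes 19 were above 0, with a median of 0.16. Fos had 6.21, 5.62 and 5.95 against 6.08, 7.91 and 6.51, so that 1 knockout array, replicate 2, carried its difference of 0.90 ± 0.34. Without that array 14 of the 20 immediate early genes were above 0, with a median of 0.11.

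Most lists of adipocyte metabolism had medians near 0. None of the lists for insulin signalling and glucose uptake (17 genes, median 0.02), triglyceride synthesis (14 genes, 0.02), lipolysis and lipid droplets (16 genes, 0.02), fatty acid oxidation (16 genes, 0.03) and oxidative phosphorylation (23 genes, 0.00) held a passing gene. Neither did those for branched-chain amino acid breakdown (19 genes, median -0.03), thermogenic genes (14 genes, 0.03) and cholesterol synthesis (17 genes, 0.04). Single members lay further out in both directions. In fatty acid oxidation 5 of 16 genes did not overlap, 3 higher and 2 lower, and differences ran from -0.51 to 0.62. Among thermogenic genes 4 of 14 did not overlap, 2 higher and 2 lower, with -0.52 to 0.68. The share of all genes was 14.9%, and in insulin signalling it was 0 of 17. De novo lipogenesis had 15 of 20 genes below 0 (41.7% of all genes were) and a median of -0.13. The fatty acid desaturases stood out there: Fads1 read 10.83, 10.92 and 10.68 against 10.37, 10.52 and 10.53, a difference of -0.34 ± 0.09, and Fads2 had -0.35 ± 0.10 (adjusted p 0.27 and 0.272). The lipid-droplet coat Plin2 read 11.32, 11.54 and 11.50 against 11.70, 11.62 and 11.76, a difference of 0.24 ± 0.06 (adjusted p 0.227). The coactivators Ppargc1a (-0.51 ± 0.20) and Ppargc1b (-0.31 ± 0.11) of mitochondrial genes were lower on each knockout array and did not pass.

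Among markers of other cells, those of smooth muscle and pericytes were below 0 in 11 of 11 cases (41.7% of all genes were), with a median of -0.27. Of these, 3 had an unadjusted p under 0.05 (3.59% of all genes were lower so) and 0 passed. Desmin (Des) read 8.79, 8.29 and 8.43 against 7.96, 8.19 and 8.14, a difference of -0.41 ± 0.11 (adjusted p 0.268). On high-fat diet 10 of the 11 were above 0. Without wild-type replicate 1, also the highest in liver transcripts, the median of this list was -0.14 with 10 of 11 below 0. Without knockout replicate 1 it was -0.17 with 9 of 11 below 0. Endothelium (median -0.02), fibroblasts and progenitors (0.11), mesothelium (-0.03) and T cells (0.20) held no passing gene. The part of cell composition in any gene that passed was not tested.

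The same 25 genes were also read on high-fat diet. Of the 25, 17 had the same sign on high-fat diet (47.1% of all genes did) and 10 did not overlap between genotypes (6.68% of all genes). Among these 10, Bcl6 and Aox3 were apart in the direction opposite to that on chow. In 24 of the 25 the difference was smaller than on chow. Entpd4 was the exception. The interaction of genotype and diet passed for 0 of 18820 genes (0%) in limma, while 1829 (9.72%) had an unadjusted p under 0.05, among them 21 of the 25. Since the 25 were chosen for their chow difference, the 24 and the 21 are descriptions. The smallest adjusted p of the interaction was 0.0783, for Aox3: it was lower in knockout mice on chow, and on high-fat diet read 5.36, 5.87 and 5.65 in wild-type mice and 6.04 to 6.18 in knockout mice, a difference of 0.48 ± 0.12. Without wild-type replicate 2 on high-fat diet the interaction passed for 106 genes, among them 7 of the 25: Adamtsl1, Aox3, Capn6, Csta2, Disp2, Fam20c and Hamp. That fit called 44 genes on chow, including all 25.

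**Figure D5:**
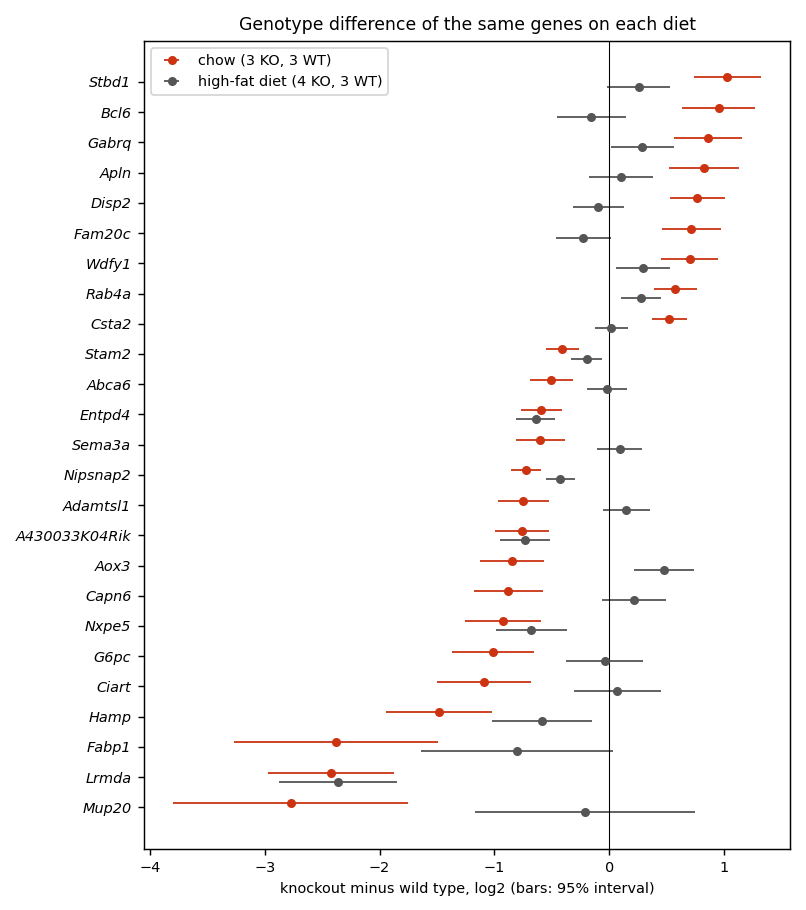
Difference between knockout and wild-type mice (log2) with its 95% interval for the 25 genes that passed on chow, on chow in red and on high-fat diet in grey. Lrmda, Entpd4, A430033K04Rik and Nipsnap2 passed on both diets, while Bcl6, Disp2, Fam20c, Aox3, Capn6, Adamtsl1, Sema3a and Ciart change sign.

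The set of passing genes depended on single arrays. Fits that left out 1 chow array called 4, 6 and 36 genes without wild-type replicates 1, 2 and 3, and 2, 9 and 10 without knockout replicates 1, 2 and 3. Nipsnap2 (-0.77 to -0.69) and Lrmda (-2.74 to -2.26) passed in all 6, and Stbd1 (0.87 to 1.13) in 4. The other 22 genes passed in 0 to 2 of these fits, and Stam2, Wdfy1, Nxpe5, Apln and Ciart in 0. No gene of the 25 changed sign in any fit.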

How the data were processed

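RNA from epididymal fat had been labelled from 100 ng of total RNA per sample and read on Affymetrix arrays, per the labels' protocols. The deposited values are log2 expression per probe set, made by the authors with RMA, per the submitters' processing notes, which name no version. They were not normalized again. Of 35556 probe sets 21218 name 1 gene, 1881 several and 12457 none. The probe set with the highest mean stood for a gene, which gave 18820 genes, 18790 of them matched by Entrez ID to the RefSeq table (GRCm38.p6), used for gene order.

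One limma 3.58.1 model (R 4.3.3) with a mean for each of 4 groups was fitted to all 13 arrays, with an intensity trend in the variances (9 residual degrees of freedom). The threshold was a limma p under 0.05 after Benjamini-Hochberg adjustment across the 18820 genes. Values after ± are standard errors, and unadjusted p-values are those of the same fit. With 3 arrays against 3, an exact permutation test cannot go below a two-sided p of 0.1, so none was used, and the number of arrays limits the precision. Figures used Python 3.11.15 and matplotlib 3.10.9.

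The 25 pathway and 21 marker lists (737 entries, 85 not measured), the comparison and the named genes were chosen with earlier results of these data known. Named were P2rx7, P2rx4 and the inflammasome core, every gene that passed, the smallest p values within each list and near P2rx7, and the largest non-overlapping differences that did not pass. Gabre, relatives of passing genes, the liver values with a covariate and the printed promoters were chosen after their values were seen. The steps were tested on simulated data. Alternatives changed the variance model, scaling, filter, probe-set rule, weights, groups, minimum fold, covariates and arrays. Gene lists were described by counts and medians only.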

Additional observations from a re-analysis of the deposited data

Results flagged for a closer look

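Probe sets outside the gene table were read by fitting all 35556 probe sets together. This fit called 28 probe sets on chow, 11 that name 1 gene and 17 that do not, of which 15 have no gene and 2 have several in the annotation. None of the 17 was part of the comparisons above. Of those without a gene, 9 formed a group of like values, with differences of -2.08, -1.78, -2.07, -1.91, -2.05, -2.05, -2.03, -1.97 and -2.12, and wild-type means from 9.19 to 10.69 on the log2 scale. The identifiers of these 9 run just before those of the probe sets of Mup20 (-2.77) and Mup3 (-2.28). They may therefore not be signals separate from the Mup genes given above. Another pair gave identical values, each with a difference of -1.29. The remaining probe sets without a gene had differences of 1.12, -0.94, 1.22 and 2.17. The probe set naming AA467197 and Mir147 had 0.76, and the one naming Plac9b, Gm9780 and Plac9a had -0.42. What these unnamed probe sets read was not tested. Of the 25 genes that passed on chow, 0 had a knockout array on high-fat diet that stood apart from the other 3 by Dixon's criterion.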

How the results depend on the processing

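Genes higher in knockout mice on chow numbered 9, and 5 with the 6 chow arrays alone, 0 at a minimum fold of 1.2, 4 with the liver list and 14 with the mesothelium list as covariate, 0 with wild-type and knockout replicate 1 both left out, and 0 to 13 with single chow arrays left out. Genes lower numbered 16, and 10 among genes above the median level, 2 at the minimum fold, 6 with the liver list, 6 with it and without wild-type replicate 1, 0 with both arrays out, and 2 to 23 with single chow arrays out. Without wild-type replicate 2 on high-fat diet 44 genes passed on chow, including all 25. On high-fat diet 2 were higher (0 above the median level, 0 at the minimum fold, 4 with the mesothelium list, 1 to 63 with single arrays out) and 6 lower (2 at the minimum fold, 4 to 114). The highest counts on high-fat diet came without that same array. The interaction count of 0 was 2 without the trend, 1 with centred arrays, 1 with array weights, 3 with the mesothelium list and 0 to 106 with single arrays out. Near P2rx7 the count of 1 was 0 within 50 genes, 2 within 200 and 0 with both arrays out, and it was 1 with each single chow array out. Both-arrays-out and the liver list without wild-type replicate 1 were chosen after seeing the data. The cause of these changes was not tested. The fit to the chow arrays alone called 22 genes, of which 8 were among the 25. The trend, robust variance, centring, second quantile normalization, mean of probe sets and array weights kept the chow counts within 1.5 times. None of the 25 genes changed direction in the chow fits tabulated.

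Same-numbered chow arrays correlated in their deviations at 0.02, 0.22 and -0.02, so the numbers were not taken as pairs. With a replicate block, 1 gene was higher and 5 lower on chow, all among the 25, and 0 higher and 0 lower on high-fat diet.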

Other observations

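Among the largest differences that did not pass on chow were genes with higher levels on high-fat diet. The choline transporter Slc5a7 read 5.44, 5.18 and 4.63 in wild-type fat on chow against 6.29, 6.18 and 7.74 in knockout fat, a difference of 1.65 ± 0.36 (limma adjusted p 0.16). The lipase Lipf read 4.42, 5.22 and 4.37 against 6.09, 5.66 and 7.15, a difference of 1.64 ± 0.44 (adjusted p 0.245). The ubiquitin ligase Rnf128 read 4.87, 4.87 and 4.83 against 6.55, 5.02 and 6.40, a difference of 1.13 ± 0.34 (adjusted p 0.287), and the matrix protease Mmp3 3.82, 3.89 and 3.90 against 5.46, 4.58 and 5.12, a difference of 1.19 ± 0.34 (adjusted p 0.275). All 4 had higher means on high-fat diet in both genotypes: Slc5a7 9.70 in wild-type and 10.04 in knockout mice, Lipf 9.19 and 10.04, Rnf128 10.22 and 9.90, and Mmp3 7.35 and 7.24. Body weight was not analysed here.

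Cell division genes were above 0 in 16 of 17 cases on chow (58.3% of all genes were), with a median of 0.17 and 0 passing. The checkpoint kinase Bub1 read 4.95, 4.40 and 4.77 in wild-type fat against 5.58, 5.47 and 5.24 in knockout fat, a difference of 0.72 ± 0.17, and -0.18 on high-fat diet. Without wild-type replicate 2 the median was 0.07 with 11 of 17 above 0, and without knockout replicate 1 it was 0.08 with 12 of 17, while without wild-type replicate 1 it was 0.29.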
